A study of Mus musculus with 19 samples.

Results

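The core circadian clock genes are described here in liver RNA of mice with fibrosis induced by thioacetamide (TAA), a toxin that hepatocytes convert to reactive metabolites, and of vehicle-treated mice. They are 10 genes of the 31053 listed in the count table, taken by symbol as a named set, and all 10 were found in the table. By role they are the positive arm (*Arntl*, also called *Bmal1*, with *Clock* and *Npas2*), the negative arm (*Per1*, *Per2*, *Per3* and *Cry1*), the nuclear receptor loop (*Nr1d1* and *Nr1d2*, the genes of REV-ERB-alpha and REV-ERB-beta) and the output factor *Dbp*.

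Whole liver was sequenced from 19 male C57BL/6 mice (strain C57BL6J in the labels) that were 6 to 8 weeks old at entry. There were 5 vehicle-treated mice (PBS), 7 mice with TAA injected with AAV-GFP, and 7 mice with TAA injected with AAV-miR-34b/c. TAA was given for 12 weeks, the vectors were injected after 10 weeks of TAA, and the livers were taken 4 weeks later. The vectors are adeno-associated viruses of serotype 8 with the hepatocyte-specific TBG promoter. AAV-GFP carries eGFP, and AAV-miR-34b/c is, per the methods, a combination of a vector for miR-34b and a vector for miR-34c. The labels name no vector for the vehicle group, so TAA and the vector differ together between it and the other groups. Neither the labels nor the methods give the hour at which a liver was collected, so an effect of treatment on the clock and a difference in the time of collection cannot be told apart for any value below.

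The circadian clock of a liver cell is a feedback loop of transcription. The ARNTL protein pairs with CLOCK, or with its paralogue NPAS2, and binds E-box motifs of *Per*, *Cry*, *Nr1d1*, *Nr1d2* and *Dbp*. The PER and CRY proteins return to the nucleus and repress that pair. REV-ERB proteins repress *Arntl*, *Clock* and *Npas2* through RORE motifs, and DBP acts on D-box motifs of its own targets, *Per3* and many metabolic genes among them. In mouse liver *Arntl* and *Npas2* peak near the end of the active night, roughly opposite to *Dbp*, *Nr1d1* and *Per3*. Levels of these transcripts in a liver therefore differ between hours of the day as well as between treatments.

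The sequence before the start site was searched for the letters of the motifs named above. Windows from 250 bases before to 50 bases after RefSeq transcript starts (GRCm38.p6) were at hand for 9 members, in 13 windows, with *Per2* the member not matched. They were searched on both strands for the E-box CACGTG and for its variant CACGTT, which reads AACGTG on the opposite strand. They were also searched for the D-box TTATGTAA, which reads TTACATAA on the opposite strand, and for the core of the RORE, which reads AGGTCA or, on the opposite strand, TGACCT. Of 32851 windows in the whole RefSeq table, 7.15% held the E-box, 4.68% the variant, 0.938% the D-box and 16.3% the RORE core, and no matches in the members' windows overlap. Among the members, 7 windows held at least 1 of them. The 250 bases before the start are printed 5′ to 3′ for 5 members that represent the negative arm and the receptor loop, with the motifs in capitals.

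*Per1*, chr11:69098699-69098948, plus strand: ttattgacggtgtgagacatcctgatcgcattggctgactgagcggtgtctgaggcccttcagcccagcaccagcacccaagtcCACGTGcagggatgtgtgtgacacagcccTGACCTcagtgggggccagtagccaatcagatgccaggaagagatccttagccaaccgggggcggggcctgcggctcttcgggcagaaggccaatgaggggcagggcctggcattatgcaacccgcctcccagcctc

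*Cry1*, chr10:85185055-85185304, minus strand: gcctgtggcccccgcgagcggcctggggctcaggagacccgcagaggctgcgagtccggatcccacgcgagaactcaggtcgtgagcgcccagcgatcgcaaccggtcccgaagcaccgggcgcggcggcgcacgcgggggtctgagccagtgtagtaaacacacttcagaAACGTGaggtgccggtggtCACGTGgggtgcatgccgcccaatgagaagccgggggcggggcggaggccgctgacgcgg

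*Per3*, chr4:151044666-151044915, minus strand: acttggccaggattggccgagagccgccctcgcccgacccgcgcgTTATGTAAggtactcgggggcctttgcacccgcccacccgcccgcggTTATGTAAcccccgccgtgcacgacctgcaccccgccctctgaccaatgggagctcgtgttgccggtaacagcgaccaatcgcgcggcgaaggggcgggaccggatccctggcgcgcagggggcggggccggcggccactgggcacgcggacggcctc

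*Nr1d1*, chr11:98775378-98775627, minus strand: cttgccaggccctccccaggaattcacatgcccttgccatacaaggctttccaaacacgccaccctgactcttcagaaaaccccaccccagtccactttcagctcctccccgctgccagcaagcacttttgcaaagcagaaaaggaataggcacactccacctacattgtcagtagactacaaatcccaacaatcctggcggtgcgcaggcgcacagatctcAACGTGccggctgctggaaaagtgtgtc

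*Nr1d2*, chr14:18239107-18239356, minus strand: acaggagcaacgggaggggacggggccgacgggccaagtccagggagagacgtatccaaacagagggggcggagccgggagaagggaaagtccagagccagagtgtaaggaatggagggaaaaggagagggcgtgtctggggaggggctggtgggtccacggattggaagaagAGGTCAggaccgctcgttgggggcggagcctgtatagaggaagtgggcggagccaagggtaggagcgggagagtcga

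The E-box lay 166 bases upstream of the start in *Per1* and 60 bases upstream in *Cry1*. The *Per1* start is that of a RefSeq transcript and lies inside the longer gene span of the annotation used for the counts. The variant AACGTG lay 79 bases upstream in *Cry1* and 28 bases upstream in *Nr1d1*. Both D-boxes of *Per3*, at 205 and 158 bases upstream, read TTATGTAA. The RORE core lay 137 bases upstream in *Per1*, 119 in *Clock* and 77 in *Nr1d2*, and in *Arntl* it lay 32 bases after the start of a second transcript. The windows of *Dbp* and *Npas2* held none of these letters, and neither did the other windows of *Arntl*, *Clock* and *Per1*. The *Clock* start with a match also lies inside the gene span. A match is a description of the letters in a window and does not show that a factor binds there.

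Counts are of sequenced 3′ ends per gene, with 2214073 to 5208405 counts per library (median 2991704). Levels are given as CPM, a library's counts scaled to a common total, after TMM scaling over all 19 libraries. Hepatocyte markers marked every library as liver, with a summed level of 56400 to 89000 CPM and all 7 markers detected in each group. In bulk tissue, fewer cells of a type and less RNA per cell cannot be told apart. Within groups, 6 pairs of libraries were close to each other over all genes (vehicle 1 and 4, vehicle 3 and 5, AAV-GFP 1 and 2, and AAV-miR-34b/c 1 and 2, 3 and 4, and 5 and 7). They differed by more than counting noise and were kept as separate mice, and each call of a member that was lost when they were summed is named with its value. Whether the members of a pair are indeed separate animals cannot be told from the counts.

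Livers of 3 TAA-treated mice stood apart from the rest of their groups, with *Arntl*, *Per3*, *Nr1d2* and *Dbp* within the vehicle range. These were AAV-GFP 7, AAV-miR-34b/c 5 and AAV-miR-34b/c 7. Their *Clock* and *Nr1d1* were above every vehicle liver, and *Per1* in AAV-GFP 7 was the lowest of all 19. They were singled out after their values were seen, and levels are therefore given with and without them, as a description with no test. Mouse by mouse, the differences from the vehicle mean are given in the map of all members and libraries.

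**Figure D1:**
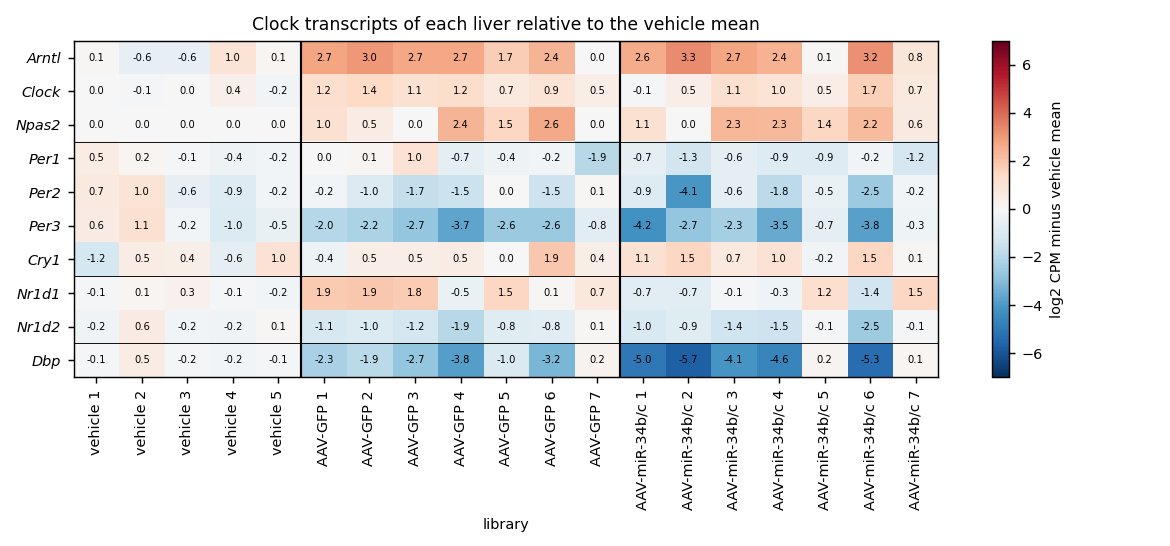
Log2 CPM of each member in each of 19 libraries minus the mean of the 5 vehicle libraries (colour and printed value; rows by role, columns by library, prior count of 2). *Arntl* is red and *Dbp* and *Per3* are blue in most TAA columns, whereas AAV-GFP 7 and AAV-miR-34b/c 5 and 7 are near white for *Arntl*, *Nr1d2* and *Dbp*.

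In the positive arm, *Arntl* (ENSMUSG00000055116, chromosome 7 from 113207465 to 113314126, plus strand, GRCm38), the partner on which the loop depends, was nearly absent from vehicle livers and present in most TAA livers. The 5 vehicle libraries held 0.347, 0, 0, 1.22 and 0.405 CPM, from 0 to 5 counts each. With AAV-GFP the lowest level was 0.317, the median 5.45 and the highest 7.02 CPM. With AAV-miR-34b/c these values were 0.358, 5.14 and 8.78 CPM. Only AAV-GFP 7 and AAV-miR-34b/c 5 and 7 lay within the vehicle range, and without them the lowest levels were 2.42 and 4.42 CPM. By edgeR, *Arntl* was higher than with vehicle by 3.15 (SE 0.69, adjusted p = 0.00684) on the log2 scale with AAV-GFP, an 8.85-fold change, and by 3.29 (SE 0.76, adjusted p = 0.00726) with AAV-miR-34b/c. Vehicle 4 held 5 of the 7 counts of its group, and without it the log2 fold changes were 4.28 and 4.40, while the other fits without 1 library in which it passed the filter gave 2.85 to 3.35 and 2.99 to 3.49. With limma-voom the value for AAV-miR-34b/c was 2.59. Because vehicle counts were so low, *Arntl* passed the filter on low counts only through the TAA libraries. With close pairs summed the edgeR adjusted p was 0.0542 for AAV-GFP and 0.0539 for AAV-miR-34b/c.

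*Clock* (ENSMUSG00000029238, chromosome 5 from 76209868 to 76304792, minus strand), which encodes the partner of ARNTL, showed a smaller difference. Vehicle libraries held 15.9, 15.2, 16.5, 21.4 and 14.2 CPM. All 7 AAV-GFP libraries lay above these, from 22.8 through a median of 35.0 to 43.8 CPM. With AAV-miR-34b/c the levels ran from 15.1 through 26.9 to 54.7 CPM, and AAV-miR-34b/c 1 was the library within the vehicle range. *Clock* rose by 1.03 (SE 0.20, edgeR adjusted p = 0.00297) with AAV-GFP, a call kept in all 12 fits that left out 1 library. With AAV-miR-34b/c the rise was 0.87 (SE 0.27, edgeR adjusted p = 0.0282). That call was lost in 7 of 12 such fits, without vehicle 1, 2, 3 or 5 or AAV-miR-34b/c 3, 4 or 6, with adjusted p up to 0.0671. It was also lost with close pairs summed (edgeR adjusted p = 0.105) and with scaling by library size only (0.0591).

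*Npas2* (ENSMUSG00000026077, chromosome 1 from 39193731 to 39363236, plus strand), the paralogue of *Clock*, had no count in any vehicle library and too few counts elsewhere for the filter, so it was tested only where no filter was used. AAV-GFP libraries ranged from 0 through 0.663 to 3.26 CPM and AAV-miR-34b/c libraries from 0 through 1.08 to 2.55 CPM. Over all libraries of a group, the pooled level was at least 5.64-fold higher than vehicle with AAV-GFP (27 counts) and at least 7.14-fold higher with AAV-miR-34b/c (32 counts), taking 3 counts over the vehicle group as the floor. The floor covers counting error only. Without a filter, edgeR called *Npas2* higher than with vehicle in both groups (adjusted p = 0.0252 and 0.0120), a test in which every vehicle library stood at 0. AAV-GFP 3 and 7 and AAV-miR-34b/c 2 also had no count.

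**Figure D2:**
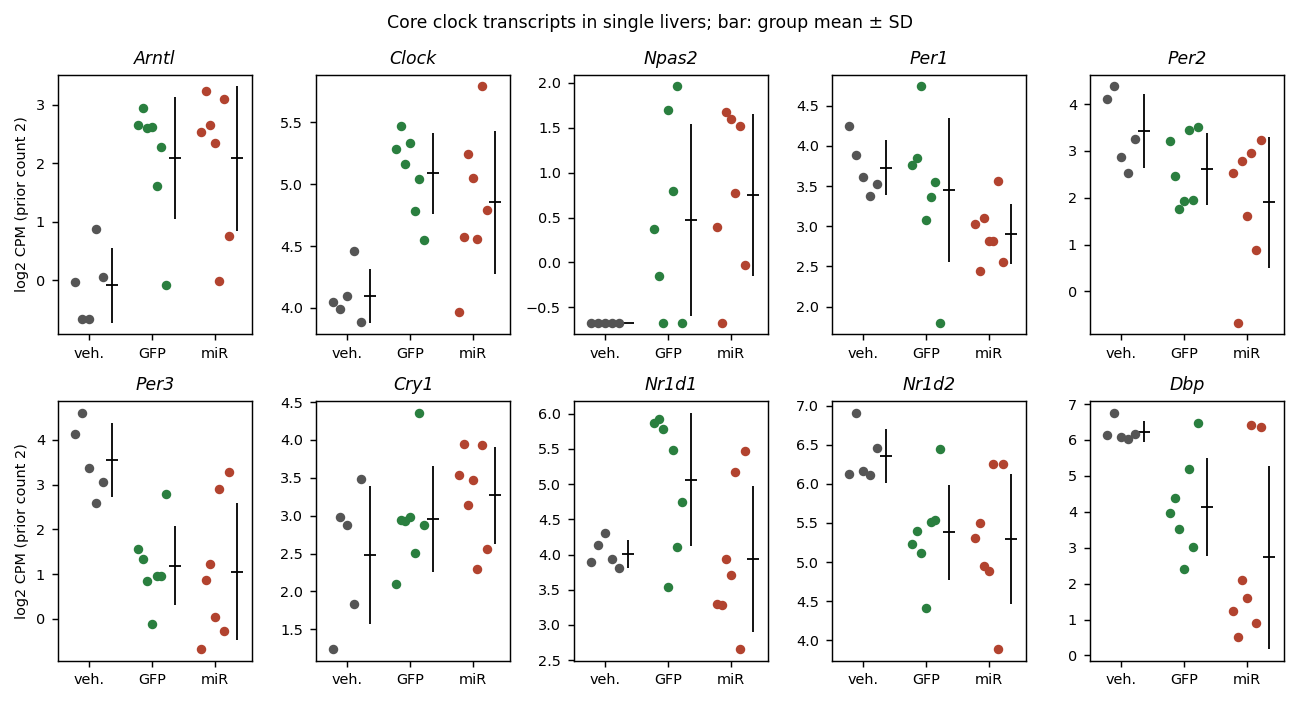
Log2 CPM (vertical axis, prior count of 2, own scale per gene) of the 10 members in vehicle (grey, n = 5), AAV-GFP (green, n = 7) and AAV-miR-34b/c (red, n = 7) livers. Points are libraries in order of replicate number, and the black bar is the group mean ± SD. *Clock* separates vehicle from every AAV-GFP liver, and 2 AAV-miR-34b/c livers sit at the vehicle level of *Dbp* while the other 5 lie far below it.

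Of the negative arm, *Per3* (ENSMUSG00000028957, chromosome 4 from 151003652 to 151044665, minus strand), a period gene, was the member that fell most. Vehicle libraries held 17.0, 23.8, 9.79, 5.35 and 7.70 CPM. AAV-GFP libraries ran from 0.290 through a median of 1.32 to 6.35 CPM, and AAV-miR-34b/c libraries from 0 through 1.2 to 9.10 CPM. The highest TAA values were those of AAV-GFP 7 and AAV-miR-34b/c 5 (6.81 CPM) and 7, and the remaining TAA libraries lay at or below 2.32 CPM, under every vehicle library. *Per3* fell by 2.59 (SE 0.48, edgeR adjusted p = 0.00212) with AAV-GFP, in each of 12 fits without 1 library. It fell by 2.23 (SE 0.68, edgeR adjusted p = 0.0275) with AAV-miR-34b/c, and by 2.92 when AAV-miR-34b/c 7 was left out. The latter call was lost without vehicle 1 or 2 or AAV-miR-34b/c 3 or 4 (adjusted p up to 0.0841), with DESeq2 (0.0680) and with close pairs summed (0.0894). *Per3* passed the filter in these comparisons through the vehicle libraries, and between the vectors it was tested only where no filter was used. Its span lies inside that of *Camta1* on the same strand, which had 3 to 30 counts.

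*Per1* (ENSMUSG00000020893, chromosome 11 from 69095217 to 69109960, plus strand), a period gene that also answers acute stimuli, had 18.4, 14.2, 11.6, 9.73 and 10.9 CPM in vehicle libraries. With AAV-GFP it spread from 2.86 in AAV-GFP 7, the lowest of all 19, through 11.1 to 26.1 CPM in AAV-GFP 3. With AAV-miR-34b/c it ran from 4.79 through 6.45 to 11.2 CPM, with 6 of 7 libraries below every vehicle library. *Per1* fell by 0.84 (SE 0.26, edgeR adjusted p = 0.0277) with AAV-miR-34b/c, a call lost without vehicle 1 or 2 or AAV-miR-34b/c 4 or 7 (adjusted p up to 0.0957), with all 3 groups in a common fit (0.0786) and with close pairs summed (0.160). With AAV-GFP the log2 fold change was -0.12 (SE 0.35, edgeR adjusted p = 0.854), and it was 0.05 without AAV-GFP 7.

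*Per2* (ENSMUSG00000055866, chromosome 1 from 91415982 to 91459324, minus strand) and *Cry1* (ENSMUSG00000020038, chromosome 10 from 85131700 to 85185064, minus strand), a repressor that peaks later than the *Per* genes, did not pass the test against vehicle. *Per2* had 16.6, 20.2, 6.67, 5.11 and 8.92 CPM in vehicle libraries, 2.73 through 4.86 to 10.8 CPM with AAV-GFP and 0 through 5.14 to 8.75 CPM with AAV-miR-34b/c, so that the groups overlapped. Its log2 fold changes were -0.85 (SE 0.40, edgeR adjusted p = 0.156) and -1.38 (SE 0.53, adjusted p = 0.0722), the second of which passed with DESeq2 (adjusted p = 0.0429). *Cry1* had 1.73, 7.28, 6.67, 2.92 and 10.5 CPM in vehicle libraries, 3.65 through 7.01 to 19.9 CPM with AAV-GFP and 4.30 through 10.4 to 14.8 CPM with AAV-miR-34b/c, again with overlap. Its log2 fold changes were 0.49 (SE 0.43, edgeR adjusted p = 0.463) and 0.79 (SE 0.41, adjusted p = 0.171). Within the arm, then, the point estimates of *Per3* and *Cry1* had opposite signs against vehicle.

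In the receptor loop, *Nr1d1* (ENSMUSG00000020889, chromosome 11 from 98767932 to 98775333, minus strand), which encodes the repressor of *Arntl*, had 14.2, 16.9, 19.1, 14.6 and 13.4 CPM in vehicle libraries. With AAV-GFP it ran from 11.0 through 44.1 to 60.0 CPM, and AAV-GFP 1, 2, 3 and 5 held 58.0, 60.0, 54.5 and 44.1 CPM. With AAV-miR-34b/c it ran from 5.69 through 12.5 to 43.8 CPM. The high values of that group were 35.5 and 43.8 CPM in AAV-miR-34b/c 5 and 7, and the other 5 libraries held at most 14.7 CPM. *Nr1d1* rose by 1.31 (SE 0.35, edgeR adjusted p = 0.0175) with AAV-GFP, which was kept in all 12 fits without 1 library and lost with close pairs summed (0.147) and with all groups in a common fit (0.0590). With AAV-miR-34b/c the log2 fold change was 0.25 (SE 0.42, edgeR adjusted p = 0.702), and it was -0.11 without AAV-miR-34b/c 7. *Nr1d1* shares 1075 bases at its 3′ end with *Thra* on the opposite strand, which had 24 to 129 counts. The strand setting of the counting is not given in the sources used here, so reads of the shared part cannot be told apart.

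*Nr1d2* (ENSMUSG00000021775, chromosome 14 from 18204054 to 18239127, minus strand), the second REV-ERB gene, was lower in most TAA livers. Vehicle libraries held 69.0, 120, 70.7, 68.6 and 87.6 CPM. AAV-GFP libraries ran from 20.6 through 41.6 to 86.6 CPM and AAV-miR-34b/c libraries from 14.2 through 39.1 to 75.3 CPM. Without AAV-GFP 7 and AAV-miR-34b/c 5 and 7 the highest values were 46.0 and 44.7 CPM, below every vehicle library. *Nr1d2* fell by 0.90 (SE 0.25, edgeR adjusted p = 0.0248) with AAV-GFP and by 0.92 (SE 0.31, adjusted p = 0.0451) with AAV-miR-34b/c. The first call was lost without vehicle 2, AAV-GFP 1 or AAV-GFP 3 (adjusted p up to 0.0764), with all groups in a common fit (0.0703) and with close pairs summed (0.111). The second was lost in 8 of 12 fits, without each vehicle library in turn and without AAV-miR-34b/c 3, 4 or 6 (up to 0.119), and with close pairs summed (0.133).

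*Dbp* (ENSMUSG00000059824, chromosome 7 from 45705088 to 45710203, plus strand), a leucine zipper factor that carries the clock to its output genes, differed widely between single TAA livers. Vehicle libraries held 70.0, 107, 67.2, 64.2 and 71.4 CPM, a 1.67-fold range. AAV-GFP libraries held 4.64, 7.50, 10.9, 14.9, 20, 36 and 87.9 CPM in rising order, an 18.9-fold range. AAV-miR-34b/c libraries held 0.798, 1.22, 1.71, 2.41, 3.68, 81.9 and 84.2 CPM, the lowest of them from 2 counts. Libraries 5 and 7 with AAV-miR-34b/c and library 7 with AAV-GFP lay in the vehicle range and all other TAA libraries below it. *Dbp* fell by 1.54 (SE 0.47, edgeR adjusted p = 0.0358) with AAV-GFP. Without AAV-GFP 7 it fell by 2.24 (edgeR adjusted p = 0.000274), and the log2 fold change with limma-voom was -2.18 (adjusted p = 0.000424). The call was lost in 9 of 12 fits, without each vehicle library in turn and without AAV-GFP 1, 2, 3 or 4 (adjusted p up to 0.0814). It was also lost with DESeq2 (0.0740), with all groups in a common fit (0.217) and with close pairs summed (0.167). With AAV-miR-34b/c the log2 fold change was of the same size, -1.61, but its error was larger (SE 0.84, edgeR adjusted p = 0.173). It was -2.33 without AAV-miR-34b/c 5 (adjusted p = 0.0633), -2.29 without AAV-miR-34b/c 7 (0.0683) and -3.14 with limma-voom and sample quality weights (0.00217). The last 737 bases of *Dbp* overlap *Sphk2* on the opposite strand, which had 48 to 245 counts.

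Counted over members, edgeR called 6 of 9 tested between AAV-GFP and vehicle, 3 higher (*Arntl*, *Clock*, *Nr1d1*) and 3 lower (*Per3*, *Nr1d2*, *Dbp*), where 12.7% of all 9522 genes tested were called (7.54% higher and 5.19% lower). Between AAV-miR-34b/c and vehicle it called 5 of 9, with *Arntl* and *Clock* higher and *Per1*, *Per3* and *Nr1d2* lower, against 21.9% of 9290 genes (12.2% higher and 9.75% lower). These comparisons share the vehicle libraries. Fits without 1 library called 3 to 6 members with AAV-GFP and 0 to 5 with AAV-miR-34b/c. Over all genes they called 689 to 1859 and 1267 to 2695. *Arntl* and *Per3* entered only through the group in which they were high, so the counts describe these members and support nothing beyond them. The median log2 fold change of the tested members was -0.12 and -0.84, beside -0.009 and 0.016 over all genes tested. With close pairs summed, 2 members were called with AAV-GFP and 0 with AAV-miR-34b/c. Calls over all genes also fell in both comparisons, to 227 of 10042 tested with AAV-GFP.

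**Figure D3:**
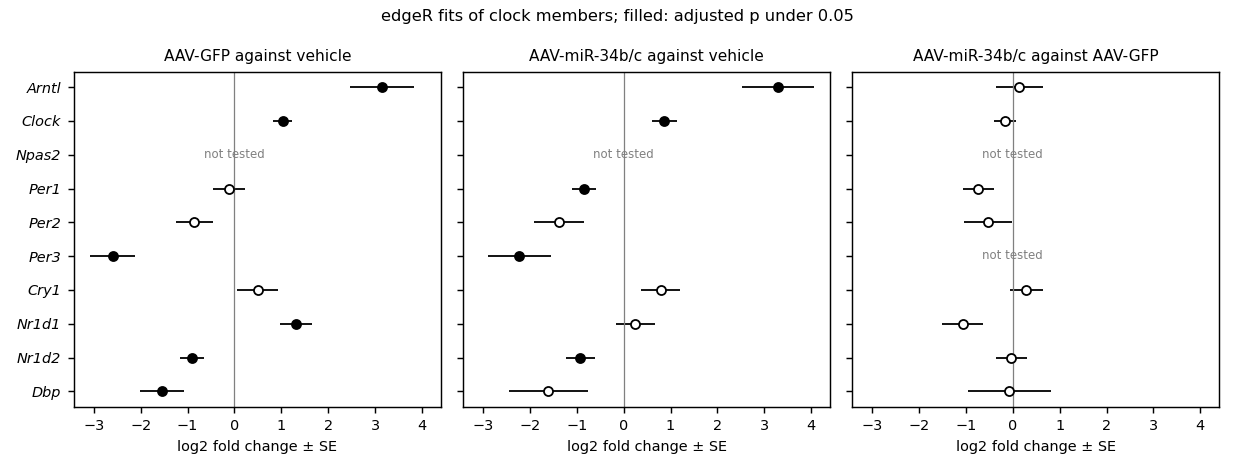
Log2 fold change ± SE of each member (horizontal axis) from edgeR for each vector group (n = 7) against vehicle (n = 5), with the vectors set against each other on the right (AAV-miR-34b/c minus AAV-GFP). Filled points have an adjusted p under 0.05, and 6, 5 and 0 members are filled.

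Between the vectors, a comparison of groups that both had TAA, edgeR called 0 of 8 tested members, where 3.36% of 9252 genes were called (1.95% higher and 1.42% lower). At an unadjusted p under 0.05 there were 2, *Nr1d1* and *Per1*, and DESeq2 and limma-voom called none either. *Nr1d1* had a log2 fold change of -1.07 (SE 0.44, edgeR adjusted p = 0.232), negative in all 14 fits without 1 library (-1.44 to -0.90). *Per1* had -0.73 (SE 0.34, edgeR adjusted p = 0.302), also negative in all 14 (-0.91 to -0.45). *Per2* had -0.53 (SE 0.51), *Cry1* 0.28 (SE 0.35) and *Clock* -0.17 (SE 0.23, with 0.01 when close pairs were summed). *Arntl* had 0.14 (SE 0.51), and -0.10 when libraries were scaled by their size only. *Nr1d2* had -0.03 (SE 0.33) and *Dbp* -0.08 (SE 0.88). Without a filter, *Npas2* had 0.26 (SE 0.73, edgeR adjusted p = 0.902) and *Per3* 0.38 (SE 0.70, adjusted p = 0.843). For *Dbp* the means of the groups were alike, 26.0 ± 29.2 and 25.1 ± 39.6 CPM (SD, n = 7 each), while the medians were 14.9 and 2.41 CPM. Without the 3 livers that stood apart the highest *Dbp* value was 36 CPM with AAV-GFP and 3.68 CPM with AAV-miR-34b/c, and the lowest AAV-GFP value, 4.64 CPM, was above all 5 of the others. An edgeR fit without AAV-GFP 7 gave *Dbp* a log2 fold change of 0.63 and fits without each other library gave -0.80 to 0.15, all with an adjusted p of at least 0.771. The interval that such errors leave is wide, and the missing calls do not show that the vectors act alike on the clock.

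Scaling matters to the direction of small changes between these groups. With scaling by library size only, the median of all genes was -0.201 (-0.007 with TMM) for one vector against the other, and the calls split into 119 higher and 505 lower, where TMM gave 180 and 131. With AAV-miR-34b/c and vehicle compared, the median went from 0.016 to -0.128 and the calls to 730 higher and 1616 lower, where TMM gave 1131 and 906. No member called against vehicle changed direction under it.

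The relation of the positive arm to the output set the vehicle livers apart from most TAA livers. The log2 CPM of *Arntl* minus that of *Dbp* within a library, used here only to set libraries side by side, was -7.42 to -5.13 in vehicle livers. It was -3.59 to 0.22 in AAV-GFP 1 to 6 and -6.55 in AAV-GFP 7. In AAV-miR-34b/c 1, 2, 3, 4 and 6 it was 1.30, 2.72, 0.55, 0.73 and 2.21, and in AAV-miR-34b/c 5 and 7 it was -6.42 and -5.62. The AAV-miR-34b/c libraries therefore fell into a cluster of 5 and a pair, with no value between. With close pairs taken as 1 sample each, these are 3 samples and 1 sample. In contrast, AAV-GFP 5 (-3.59) lay between the ends of its group. With *Clock* in place of *Arntl* the order was similar, at -2.77 to -1.56 in vehicle livers, -0.42 to 2.94 in AAV-GFP 1 to 6 and 2.74 to 4.90 in the 5 AAV-miR-34b/c livers. The 3 livers that stood apart held -1.91, -1.85 and -1.58, within the vehicle range.

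*Nr1d1* separated livers that *Arntl* did not. AAV-GFP 1, 2 and 3 had high *Arntl* (5.64, 7.02 and 5.45 CPM) together with high *Nr1d1*, and *Dbp* of 14.9, 20 and 10.9 CPM. AAV-GFP 4 and 6 had similar *Arntl* (5.51 and 4.24 CPM) with *Nr1d1* of 11.0 and 16.6 CPM and *Dbp* of 4.64 and 7.50 CPM. The 5 AAV-miR-34b/c livers with high *Arntl* had *Nr1d1* of 5.69 to 14.7 CPM, which overlapped AAV-GFP 4 and 6. Their *Dbp* was lower, at 0.798 to 3.68 CPM. The 3 livers that stood apart had *Dbp* in the vehicle range but *Nr1d1* of 26.3, 35.5 and 43.8 CPM, above every vehicle liver, so their likeness to vehicle did not extend to *Nr1d1*. *Clock* was also above the vehicle range in them (22.8, 22.9 and 26.9 CPM).

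**Figure D4:**
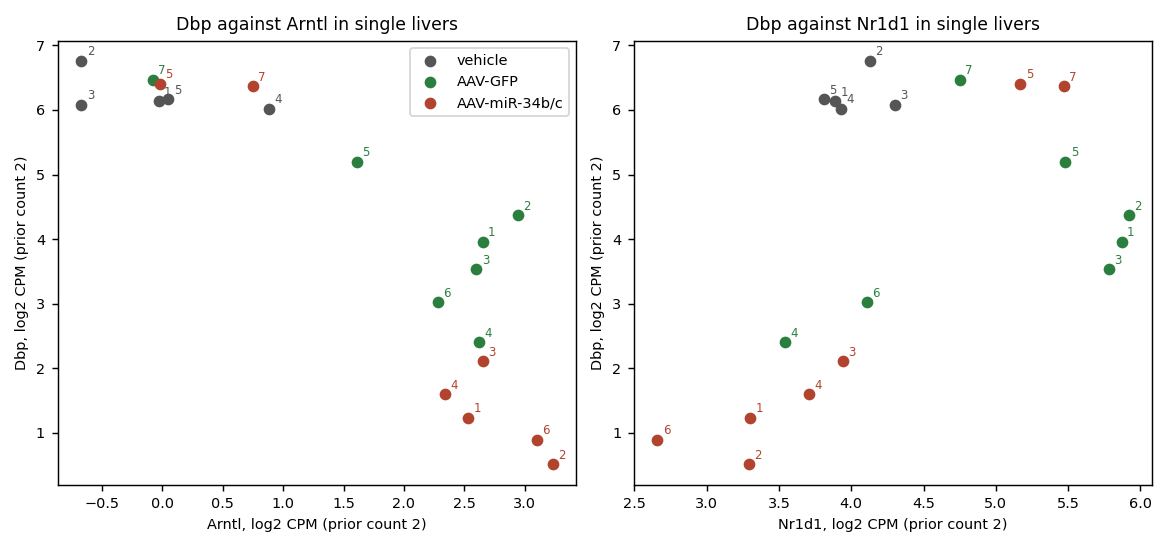
*Dbp* (vertical axes) against *Arntl* (left) and *Nr1d1* (right) in each of 19 livers, all as log2 CPM with a prior count of 2, with the replicate number beside each point. Vehicle livers lie at low *Arntl* and high *Dbp* together with AAV-GFP 7 and AAV-miR-34b/c 5 and 7, and on the right these 3 have more *Nr1d1* than any vehicle liver.

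Within the AAV-GFP group, *Arntl* and *Clock* varied together from liver to liver (Pearson r = 0.932, exact permutation p = 0.000595, adjusted over 18 relations 0.0107; Spearman rho = 0.964, exact permutation p = 0.00278, adjusted 0.05; n = 7). The adjusted Spearman p of 0.05 was not under the threshold. These permutation tests count AAV-GFP 1 and 2, a close pair, as separate mice. Without the libraries farthest from the median of *Arntl*, AAV-GFP 7 and 5, r was again 0.932. Over these fewer libraries it no longer passed the exact permutation test after adjustment. Relations with *Dbp* (r = -0.806, rho = -0.393, exact permutation p = 0.0284 and 0.396), *Per1* (r = 0.824, rho = 0.607, p = 0.0343 and 0.167) and *Nr1d2* (r = -0.802, rho = -0.643, p = 0.0389 and 0.139) did not pass after adjustment (Pearson adjusted p = 0.0862 for each). They rested on AAV-GFP 7 and 5, since r without these was 0.626, 0.151 and -0.12. The other 5 members gave r from -0.716 to 0.312. With AAV-miR-34b/c the livers formed separate clusters, of which the larger had 5 libraries, and with vehicle there were 5 libraries, so no pooled r is given for either group. The 9 relations of the AAV-miR-34b/c group count among the 18. Over its 7 libraries, *Cry1*, *Dbp* and *Nr1d1* passed the exact permutation test of Pearson r after adjustment (p = 0.0161, 0.0179 and 0.0491) and not that of Spearman rho (0.0738, 0.0738 and 0.123). These values span the separate clusters, and without libraries 5 and 7 r was 0.763, -0.749 and -0.625 over 5 libraries, given without a test. The other 6 members then gave r from -0.776 for *Per2* to 0.264 for *Per3*.

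Genes of the wider clock were described by lists of published function, as counts with no set test, to be read against the share of all genes called, 12.7% and 21.9% in the comparisons of AAV-GFP and of AAV-miR-34b/c with vehicle and 3.36% between the vectors. With close pairs summed, 10 of the 24 list genes called with AAV-GFP, 10 of the 31 called with AAV-miR-34b/c and 3 of the 6 called between the vectors kept their call, and none of these genes changed sign. Of 23 regulators associated with the clock, 5 of 21 tested were called between AAV-GFP and vehicle (4 higher, 1 lower, list median 0.00 against -0.009 over all genes). *Nfil3*, a repressor that competes with DBP for D-boxes, rose by 1.97 (SE 0.35, edgeR adjusted p = 0.00162), and *Rora*, an activator at ROREs, by 1.28 (SE 0.28, adjusted p = 0.00688). *Csnk1d* and *Gsk3b*, kinases that mark clock proteins, rose by 0.95 and 1.32, and *Usp2*, a clock-controlled deubiquitinase, fell by 1.40. With AAV-miR-34b/c 6 of 20 were called against vehicle (5 higher, 1 lower, median -0.07), led by *Nfil3* at 2.37 (SE 0.41, edgeR adjusted p = 0.00134), *Rora* at 1.24 and *Csnk1d* at 1.02. Between the vectors edgeR called 0 of 19. *Nfil3* kept its call with close pairs summed against vehicle in both groups (edgeR adjusted p = 0.0128 and 0.0263), and the other regulators lost theirs (0.0525 to 0.217). *Nfil3* held 12.7, 12.2 and 16.8 CPM in AAV-GFP 7 and AAV-miR-34b/c 5 and 7, just above the vehicle range of 4.30 to 12.1 CPM, and 15.7 to 76.3 CPM in the other TAA livers. *Rora* held 133 and 123 CPM in AAV-miR-34b/c 5 and 7, above the vehicle range of 30.5 to 82.0 CPM, and 67.6 CPM in AAV-GFP 7, within it.

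Liver enzymes and transporters known to follow the clock made up the list of outputs. Between AAV-GFP and vehicle 7 of 12 tested were called (2 higher, 5 lower, median -0.73), with *Cyp7a1*, the rate-limiting enzyme of bile acid synthesis, at -2.61 (SE 0.28, edgeR adjusted p = 9.01e-06). *Por*, the electron donor of cytochromes P450, had -1.28 and *Upp2*, a uridine phosphorylase, -1.96. With AAV-miR-34b/c 9 of 12 were called (1 higher, 8 lower, median -1.0), among which *Insig2*, a brake on sterol synthesis, rose by 1.43 (SE 0.25, edgeR adjusted p = 0.00126), *Nampt*, of NAD synthesis, fell by 1.52 and *Alas1*, of haem synthesis, fell by 1.02. Between the vectors the 1 called gene of 12 was *Cyp2a5*, at -1.99 (SE 0.35, edgeR adjusted p = 0.00305). When close pairs were summed, 5 of the 7 and 3 of the 9 kept their call, *Cyp7a1*, *Por* and *Upp2* with AAV-GFP and *Insig2* and *Nampt* with AAV-miR-34b/c among them, while *Alas1* (edgeR adjusted p = 0.0558) and *Cyp2a5* between the vectors (0.0552) did not.

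The body clock reaches the liver through temperature, glucocorticoids and feeding, and lists of genes taken here to stand for these signals were counted in the same way. Of heat shock and cold-inducible genes, *Cirbp*, an RNA-binding protein induced by cold, fell by 1.56 (SE 0.23, edgeR adjusted p = 0.000298) with AAV-GFP, where *Hsp90aa1* and *Hsph1* rose by 0.85 and 0.94, and these were the 3 called of 9. With AAV-miR-34b/c 7 of 9 were called against vehicle (5 higher, 2 lower), led by *Hsp90aa1* at 1.47, *Hsp90ab1* at 0.76 and *Hspa5* at 1.2, and 0 of 8 between the vectors. The tested genes not called with AAV-miR-34b/c against vehicle were *Dnajb1* (0.01) and *Hspa1b* (-0.10). Summing close pairs left *Cirbp* with AAV-GFP (edgeR adjusted p = 0.00745) and *Hsp90aa1* with AAV-miR-34b/c (0.0263) as the heat and cold genes that kept their call. Of feeding and fasting genes, *Igfbp1*, which insulin represses, rose by 2.2 (SE 0.52, edgeR adjusted p = 0.00964) with AAV-GFP and by 2.0 (SE 0.67, adjusted p = 0.0419) with AAV-miR-34b/c. *Irs2* rose by 2.27 and 2.16 and *Fasn* by 0.86 and 1.38, while *Asns* fell by 2.04 with AAV-GFP. In all, 5 of 11 were called with AAV-GFP (4 higher, 1 lower), 4 of 11 with AAV-miR-34b/c (all higher) and, between the vectors, 1 of 10, *G6pc* of glucose release, at -1.18. With close pairs summed, *Igfbp1* (edgeR adjusted p = 0.0679 and 0.136) and *Asns* (0.0576) lost their call, and *Irs2* (0.0378 and 0.0492), *Fasn* (0.0462 and 0.0284) and *G6pc* (0.0226) kept it. *Igfbp1* shared the split of the clock members, with 140, 106 and 81.2 CPM in AAV-GFP 7 and AAV-miR-34b/c 5 and 7, inside the vehicle range of 27.1 to 360 CPM, and 702 to 1340 CPM in the other 11 TAA livers.

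Glucocorticoid-induced genes were called in both directions. Between AAV-GFP and vehicle 4 of 10 were called, with *Zbtb16* at 3.88 (SE 0.87, edgeR adjusted p = 0.00795), *Klf9* at 0.85 and *Dusp1* at 0.94 higher and *Fkbp5* at -0.77 lower. Between the vectors 4 of 10 were called, with *Mt1* at 3.06, *Mt2* at 3.14 and *Fkbp5* at 1.15 higher and *Dusp1* at -0.91 lower. With AAV-miR-34b/c against vehicle 5 of 10 were called, *Zbtb16* (3.78), *Mt2* (2.99), *Mt1* (1.97) and *Klf9* (0.47) higher and *Sgk1* (-0.82) lower. *Mt1* and *Mt2* kept their call in both comparisons with close pairs summed (edgeR adjusted p = 0.0177 to 0.0373) and *Zbtb16* that with AAV-miR-34b/c (0.0284), and the others lost theirs (0.0761 to 0.239). The metallothioneins *Mt1* and *Mt2* also answer metals and inflammation.

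**Figure D5:**
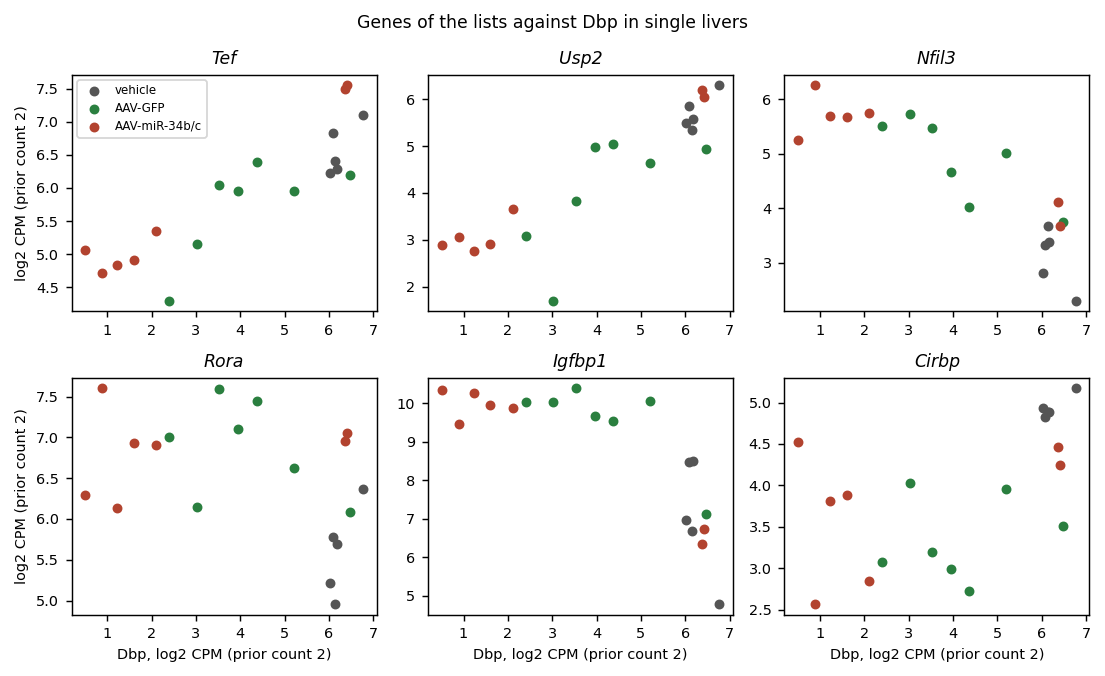
Log2 CPM (prior count of 2) of *Tef*, *Usp2*, *Nfil3*, *Rora*, *Igfbp1* and *Cirbp* (vertical axes) against *Dbp* (horizontal axes) in 19 livers, coloured by group. The 2 AAV-miR-34b/c livers with *Dbp* in the vehicle range have high *Tef* and *Usp2* and low *Nfil3* and *Igfbp1* for their group, *Usp2* in AAV-GFP 7 (29.8 CPM) lies below every vehicle liver, and *Rora* in AAV-miR-34b/c 5 and 7 (133 and 123 CPM) is above every vehicle liver.

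The genes whose levels varied most like the members were found from 8998 genes tested in all comparisons, by Pearson r of log2 CPM over the 19 libraries after the mean of each group was subtracted. These r are a description, since the libraries share preparation and close pairs. They rest in large part on AAV-GFP 7 and AAV-miR-34b/c 5 and 7, and r over the 16 other libraries is given with them. Most alike to *Arntl* were *Rnf144a* (0.91), *Slc16a1*, a lactate and pyruvate carrier (0.88), *Chka*, a choline kinase (0.87), *Irf2bp2* (0.84) and *Clpx* of the mitochondrial protease (0.82). Most opposite to it were *Nrep* and *Fam126b* (-0.84 each), *Nmrk1* (-0.82), *Uri1* (-0.81) and *Wee1*, a kinase gene of the list of outputs (-0.80). Among the members, *Dbp* had -0.87, *Nr1d2* -0.76, *Per2* -0.65, *Clock* and *Per1* 0.50 each, *Nr1d1* -0.44 and *Cry1* 0.30 with *Arntl*. Over 16 libraries r was -0.46 for *Dbp*, -0.31 for *Nr1d2*, -0.55 for *Per2*, 0.43 for *Clock*, 0.02 for *Per1*, -0.13 for *Nr1d1* and -0.15 for *Cry1*. It was 0.72 for *Rnf144a* and 0.62 for *Chka*, 0.06 to 0.34 for the other 3 most alike genes, and -0.61 to -0.22 for the 5 opposite ones.

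Most alike to *Dbp* were *Tef*, a leucine zipper factor of the same family (0.91), *Nrep*, *Fbxo21* and *Usp2* (0.88 each) and *Wee1* (0.86), and most opposite were *Clpx* (-0.91), *Chka* (-0.90), *Rnf144a* and *Slc16a1* (-0.88 each) and the chaperone *Hspa8* (-0.87). *Tef* held 186 and 179 CPM in AAV-miR-34b/c 5 and 7, above the vehicle range of 74.2 to 137 CPM, and 25.6 to 40.2 CPM in the other 5 libraries of that group. *Chka* had 4.00 to 7.70 CPM in vehicle livers, 9.52, 9.32 and 4.55 CPM in AAV-GFP 7 and AAV-miR-34b/c 5 and 7, and group medians of 30.7 and 32.3 CPM. Among the members, *Nr1d2* had 0.78, *Nr1d1* 0.74, *Per2* 0.70, *Cry1* -0.53, *Per1* -0.34 and *Clock* -0.30 with *Dbp*. Over 16 libraries these were 0.39, 0.74, 0.69, -0.34, 0.16 and -0.08, so that of *Per1* turned sign, with 0.74 for *Tef*, 0.70 for *Usp2*, 0.56 for *Fbxo21*, 0.25 for *Nrep* and 0.24 for *Wee1*. The 5 opposite genes ranged from -0.75 for *Rnf144a* to -0.15 for *Slc16a1*.

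Other measures differed between these livers as well. Neutrophil markers, all 4 of which had counts in every group, summed to 16.5 to 80.8 CPM with vehicle, 13.8 to 73.6 CPM with AAV-GFP and 61.9 to 1910 CPM with AAV-miR-34b/c, and the lowest values of the last group were those of AAV-miR-34b/c 5 and 7 (62.7 and 61.9 CPM). Between the vectors edgeR called all 3 of them that were tested, *S100a8* (4.36, adjusted p = 0.00243), *S100a9* (4.31, adjusted p = 0.00415) and *Retnlg* (3.98, adjusted p = 0.00447). In AAV-GFP 7 they summed to 23.8 CPM, within the range of its group. Cholangiocyte markers (5 of 5 with counts) summed to 18.2 to 41.0 CPM with vehicle, 52.5 to 94.6 with AAV-GFP and 50.1 to 119 with AAV-miR-34b/c, with 58.4, 57.3 and 50.1 CPM in the 3 livers that stood apart, above every vehicle liver. *Sox9* (group means of 18.3, 34.3 and 48.7 CPM) and *Spp1* (11.6, 29.2 and 18.5 CPM) made up most of the cholangiocyte sum. *Krt19* (0.745, 3.09 and 1.09 CPM), *Krt7* (1.01, 2.27 and 0.698 CPM) and *Epcam* (0.713, 3.58 and 1.08 CPM) were too low to be tested. Their means with AAV-miR-34b/c were near those of vehicle. Hepatocyte markers gave 76100, 74700 and 76000 CPM in the 3 livers that stood apart, within the vehicle range of 68300 to 83400 CPM. Stellate cell and fibroblast markers (7 of 7 with counts) summed to 340 to 525 CPM with vehicle, 365 to 483 with AAV-GFP and 234 to 442 with AAV-miR-34b/c, with 483, 262 and 301 CPM in the 3 livers. That sum was carried mostly by *Dcn* (group means of 370, 317 and 261 CPM). Of the same list, *Col1a1* (2.42, edgeR adjusted p = 0.000298) and *Pdgfrb* (1.95, adjusted p = 0.0193) were higher with AAV-GFP than with vehicle, and *Col1a1* (-1.92, adjusted p = 0.000898) and *Col3a1* (-1.46, adjusted p = 0.00305) were lower with AAV-miR-34b/c than with AAV-GFP. Endothelial markers (6 of 6 with counts) summed to 165 to 220 CPM with vehicle, 154 to 201 with AAV-GFP and 216 to 264 with AAV-miR-34b/c, so the vector groups did not overlap. *Lyve1* (group means of 17.2, 22.4 and 46.9 CPM) differed between them by 1.06 (edgeR adjusted p = 0.00130) and was the 1 called of 5 tested. The log2 fold changes of the others were 0.27 for *Stab2*, 0.23 for *Clec4g*, 0.08 for *Kdr* and -0.02 for *Pecam1*. Macrophage markers (6 of 6) summed to 246 to 590, 259 to 385 and 311 to 448 CPM, and *Adgre1* (-0.99, edgeR adjusted p = 0.0181) and *Clec4f* (-0.93, adjusted p = 0.0133) were lower with AAV-GFP than with vehicle. Lymphocyte markers (6 of 6) summed to at most 6.96 CPM in any library. Mitochondrial genes took 3.73% to 5.65% of counts with vehicle, 4.83% to 9.41% with AAV-GFP and 3.71% to 10.8% with AAV-miR-34b/c. The part of these measures in the clock values was not tested.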

How the data were processed

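The values used are counts of 3′ ends per gene, which the authors deposited as a single table without normalization for 31053 Ensembl genes in 19 libraries. Per the methods, the provider's pipeline filtered, trimmed, aligned and counted the single-end reads, and the submitters' processing notes name STAR and mm10, with no version. Which annotation was used, whether counting read the strand and whether molecular identifiers were counted are not given in the sources used here, so counts can include PCR duplicates and share reads between overlapping genes. The labels call the libraries of a group biological replicates, and p-values measure the spread between these libraries.

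Each comparison was fitted on all genes with edgeR 4.0.16 in R 4.3.3 (TMM, filterByExpr with a minimum count of 10 and minimum total of 15, glmQLFit and glmQLFTest) over its own groups without covariates, with Benjamini-Hochberg adjustment over all genes tested and a threshold of 0.05. Standard errors were taken from the log2 fold change and the F statistic. Log2 CPM used a prior count of 2, and folds against a group without counts used a floor of 3 counts. Correlations were tested by two-sided exact permutation. The fits were also run on simulated counts drawn independently for each library, with no close pairs and no split within a group. That run therefore cannot show how close pairs or the split of livers affect the calls.

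The members and lists were chosen with earlier results of these data known. All members are named in every comparison. Of each list, the 3 called genes with the smallest p in a comparison are named, or each called gene where 5 or fewer were called, and the 5 genes most alike and most opposite to *Arntl* and *Dbp* are named by r. A called gene of the feeding list is not reported here. *Tef*, *Usp2*, *Chka* and the libraries that stood apart were described further, and r without those libraries was added, after the values were seen. Alternatives were no filter, at least 10 counts in every library, DESeq2 size factors, library size only, scaling without mitochondrial genes, *Gm42418* and the 10 most counted genes, DESeq2 1.42.0, limma-voom (limma 3.58.1) with sample quality weights, all 3 groups in a common fit, a replicate block, close pairs summed, and each library left out. Gene positions are from GENCODE on GRCm38, and promoter sequences from RefSeq on GRCm38.p6.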

Additional observations from a re-analysis of the deposited data

Results flagged for a closer look

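Over 33 sets of libraries (10 members and the total count in 3 groups), 3 held a library far from the others of its group, where chance gives about 1 in 20 sets, or 1.65. *Cry1* had a log2 CPM of 4.36 in AAV-GFP 6, and the next highest of that group was 2.98. *Dbp* had a log2 CPM of 6.76 in vehicle 2, and the next highest was 6.17. Vehicle 2 also had the highest *Per2*, *Per3* and *Nr1d2* of its group. The total count of AAV-GFP 5 was 4383805, and the next highest was 3239809. *Dbp* in AAV-GFP 7 and in AAV-miR-34b/c 5 and 7 did not meet this rule on the log scale.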

How the results depend on the processing

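Over all settings other than leaving out 1 library, 218 values of members kept direction and call, 18 lost the call, 4 gained it and 6 changed sign. The replicate block, a term for each replicate number, is among these settings. No vehicle library carries the number 6 or 7. With the block, libraries 6 and 7 of the vector groups therefore did not enter the fold changes against vehicle. Over fits without 1 library, 266 were kept, 35 lost the call and 17 changed sign. The cause of each change was not tested, except that summing close pairs leaves fewer samples. All genes called between AAV-GFP and vehicle (1212) became 2687 with limma-voom, 3136 with the replicate block and 227 with close pairs summed. Between the vectors 311 became 624 with library size only, 535 with DESeq2, 813 with limma-voom, 142 with the block and 87 with close pairs summed. Between AAV-miR-34b/c and vehicle 2037 became 3839 with limma-voom, 945 with the block and 331 with close pairs summed. Members called with AAV-GFP (6) became 7 of 10 without a filter and 7 with the block, 3 with all groups in a common fit and 2 with close pairs summed, and with AAV-miR-34b/c (5) 6 of 10 without a filter and with limma-voom 6, 4 with the block, library size only or a common fit, 3 of 4 tested with at least 10 counts in every library and 0 with close pairs summed. List genes called became 40 with the block and 10 with close pairs summed for AAV-GFP, and with close pairs summed 3 between the vectors and 10 for AAV-miR-34b/c versus vehicle. Log2 fold changes that changed sign were *Per1* with AAV-GFP (0.03 with the block), *Nr1d1* with AAV-miR-34b/c against vehicle (-0.12 with the block) and, between the vectors, *Arntl* (-0.10 with library size only, -0.44 with limma-voom), *Clock* (0.01 with close pairs summed) and *Nr1d2* (0.05 with limma-voom). With the block the call of *Clock* (0.61, edgeR adjusted p = 0.111) and that of *Per1* (-0.94, 0.0617) with AAV-miR-34b/c were lost, and *Per2* with AAV-GFP (-0.92, 0.0396) and *Dbp* with AAV-miR-34b/c (-3.80, 0.00727) were called, while *Dbp* with AAV-GFP was -2.30 and *Per3* with AAV-miR-34b/c -2.85. Whether replicate numbers pair the mice cannot be told from the counts. After the mean of each group was subtracted, libraries with the same number had correlations of -0.284 to 0.277. Without AAV-GFP 7 and 5, r of *Arntl* was 0.93 with *Clock* (exact permutation p adjusted, 0.129), -0.64 with *Npas2*, 0.36 with *Per2*, 0.24 with *Per3*, -0.66 with *Cry1* and 0.63 with *Dbp*. Leaving out 1 library gave 689 (without vehicle 4) to 1859 (without AAV-GFP 6) genes for AAV-GFP against vehicle, with 728 without vehicle 1 and 806 without AAV-GFP 3, 209 to 344 between the vectors, and 1267 (without vehicle 4) to 2695 for AAV-miR-34b/c versus vehicle, with 1328 without vehicle 1. Members called were 3 (without AAV-GFP 1 or 3) to 6, 0 to 0, and 0 to 5 (0 without AAV-miR-34b/c 4, 1 without vehicle 1 or 2 or AAV-miR-34b/c 3, 2 without AAV-miR-34b/c 6, 3 without vehicle 3 or 5), and list genes 19 to 31, 5 to 8 and 23 to 32. Signs changed within *Per1* with AAV-GFP (-0.41 to 0.05), *Nr1d1* with AAV-miR-34b/c (-0.11 to 0.42) and, for one vector against the other, *Arntl* (-0.07 to 0.34), *Nr1d2* (-0.22 to 0.21) and *Dbp* (-0.80 to 0.63), and in r of *Arntl* with *Npas2* (-0.34 to 0.48), *Per3* (-0.80 to 0.08) and *Cry1* (-0.07 to 0.21), while r with *Nr1d2* was -0.93 to -0.37. *Arntl* passed the filter in 7 of 12 such fits of each vehicle comparison and was called in all 7. Depth limits *Arntl*, *Npas2*, *Per2* and *Per3*, whose lowest libraries held 0 counts.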
